A study of Mus musculus with 8 samples.

Results

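The genes described here encode the basement membrane and extracellular matrix of the subventricular zone, the stem cell niche that lines the lateral ventricle of the adult brain. They were chosen by symbol alone: every laminin chain, every collagen chain, both nidogens (Nid1, Nid2), perlecan (Hspg2), agrin (Agrn), the lecticans aggrecan (Acan), brevican (Bcan) and neurocan (Ncan), tenascins C and R (Tnc, Tnr), fibronectin (Fn1) and reelin (Reln). The platform annotation gave 95 probes of 65 such genes, among 32684 probes of 21363 genes, and the rule uses no measured value.

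Total RNA came from subventricular zones microdissected at 7 months of age from female mice, with 4 samples of genotype 3xTg and 4 of the wild-type control strain (WT). Per the labels the strain background of both groups was a cross of C57BL/6J females and 129S1/SvImJ males. The 3xTg line models Alzheimer's disease and carries, among its alterations, transgenes for human APP and MAPT under a Thy1 cassette that is active in neurons. The labels call the replicates biological but do not give the number of mice behind a sample. The 3xTg and WT samples that carry 1 replicate number shared a 2-colour array, and on all 4 arrays the label fields give Cy5 for 3xTg and Cy3 for WT, so genotype and dye cannot be told apart. The values are log2 intensities already normalized by the authors. Sample medians lay between 10.12 and 10.15, and the member probes spanned 6.45 to 14.28, below the highest value of every sample. Markers of the dissected tissue were measured in all samples, with the ependymal gene Foxj1 between 10.15 and 11.92, the neuroblast gene Dcx between 11.77 and 12.82 and the astrocyte and stem cell gene Gfap between 12.71 and 13.29.

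A basement membrane is a thin sheet in which a laminin network and a type IV collagen network are joined by nidogens and heparan sulphate proteoglycans. In this niche it surrounds blood vessels and also extends from them as branched structures called fractones, which contact stem cells and ependymal cells and bind growth factors. Laminins are trimers of an alpha, a beta and a gamma chain, and collagens are trimers of alpha chains, so that a change in 1 chain need not be a change in the trimer. The lecticans, tenascin R and reelin belong instead to the matrix between neurons and glia.

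Of the 95 probes, 2 passed the test, the laminin chain gene Lamb2, which fell in 3xTg, and 1 of 4 probes of the collagen gene Col25a1, which rose. The test was limma with the array as a block. Its p-values were adjusted by the Benjamini-Hochberg method across the whole table, with a threshold of 0.05. They set each difference against the spread between the 4 arrays, moderated by the variance of all probes. By the same test 1.22% of all probes passed (203 higher and 197 lower), against 2.11% of the members, a share near the background. With samples centred on their medians, or with loess within arrays, 3 member probes passed above WT and 1 below, and with quantile normalisation 0 passed above and 1 below. At an unadjusted p under 0.05 there were 21 member probes of 16 genes, or 22.1%, against 18.0% of all probes, with 10 above and 11 below WT. The 4 samples of a group did not overlap with the 4 of the other at 6 member probes, or 6.32%, against 4.53% of all probes. Of these, Col25a1, Col15a1, Col6a3 and Col9a3 were higher in 3xTg and Lamb2 and Col5a2 were lower. The difference had 1 sign on all 4 arrays at 21 member probes, 22.1% against 25.3% of all probes.

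With each gene at its brightest probe, the median difference over the 65 genes was -0.04 log2 units, with 26 genes above 0 and 39 below, against a median of 0.01 over all genes, with 11239 above and 10124 below. The member median on single arrays ran from -0.14 on array 4 to 0.05 on array 3. Differences are 3xTg minus WT in log2 intensity with their standard error (SE) over 4 arrays, and in bulk tissue fewer cells of a type and less RNA per cell cannot be told apart.

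**Figure D1:**
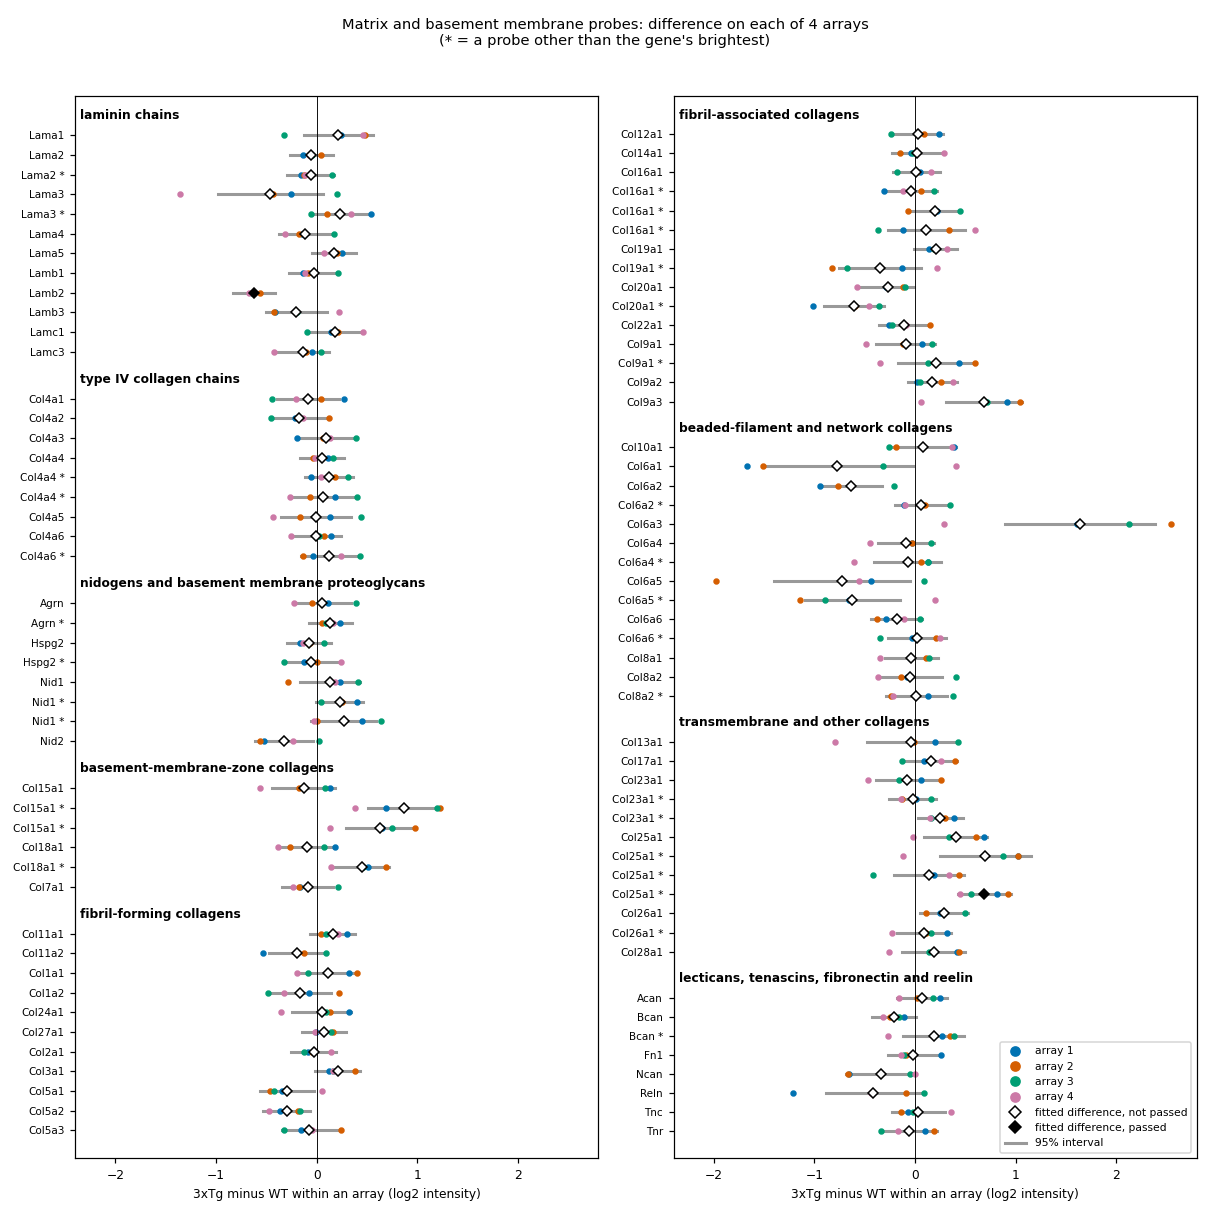
Difference in log2 intensity between 3xTg and WT on each of 4 arrays (coloured points), with the fitted difference (diamond) and its 95% confidence interval (grey bar), for all 95 probes grouped by role. Filled diamonds mark the 2 probes that passed, Lamb2 below 0 and Col25a1 above it, and Col6a3 and Col6a1 show the widest spread between arrays.

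Laminin chains were measured at 12 probes of 10 genes, and Lamb2 alone passed. The median over the 10 genes was -0.09, with 3 above 0 and 7 below. Lamb2 encodes the beta2 chain, a component of laminins in vascular, glial and neuromuscular basement membranes. It has a single probe (A_51_P248044) and measured 10.99, 11.22, 11.35 and 11.54 in WT replicates 1 to 4, and 10.37, 10.66, 10.71 and 10.86 in the 3xTg replicates of the same numbers. Every 3xTg sample lay below every WT sample. Within arrays the differences were -0.62, -0.56, -0.64 and -0.67, so that the 4 arrays lay close together. Lamb2 fell by 0.62 ± 0.09 (SE, 4 arrays; 95% interval -0.84 to -0.41), or 1.54-fold, with an adjusted p of 0.0284 by limma. With any 1 array left out the difference was -0.65 to -0.61, and the adjusted p of 0.0507 to 0.245 no longer passed.

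The DNA just upstream of Lamb2 is shown because it is the 1 laminin gene that passed. The stretch covers 250 to 31 bases before the annotated start, from RefSeq on GRCm38.p6, written 5′ to 3′ on the gene's strand, and capitals would mark a match to 1 of 3 motifs searched on both strands, the TATA box (TATAAA), the CCAAT box (these letters) and the GC box (GGGCGG).
Lamb2 promoter, chr9:108479612-108479831, plus strand: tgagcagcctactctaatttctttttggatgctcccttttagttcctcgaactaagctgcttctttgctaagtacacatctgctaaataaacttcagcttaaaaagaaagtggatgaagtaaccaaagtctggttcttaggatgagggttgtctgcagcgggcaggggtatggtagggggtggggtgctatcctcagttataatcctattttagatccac
None of the 3 motifs occurs in these 220 bases. The stretch ends 31 bases before the start and so leaves out the usual place of a TATA box, which was not searched. Over 32851 promoter windows of the same length, 9.95% hold the TATA box, 31.0% the CCAAT box and 28.5% the GC box. Bases G and C make up 43.2% of the Lamb2 stretch, against a median of 51.8% over all windows. A promoter sequence was found for 49 of the 65 genes.

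The other laminin chains did not pass. Lamc1, the gamma1 chain found in most laminin trimers, measured 10.13 to 11.21 in WT and 10.03 to 11.42 in 3xTg, with a difference of 0.18 ± 0.11 (adjusted p = 0.455, limma). Lamb1, the other widely expressed beta chain, differed by -0.03 ± 0.10, on arrays -0.13, -0.09, 0.21 and -0.12. Lama5, an alpha chain of mature vessels, was above WT on all 4 arrays by 0.26, 0.20, 0.16 and 0.07, with a fitted difference of 0.17 ± 0.09 (adjusted p = 0.377, limma). The vessel chain Lama4 differed by -0.12 ± 0.11, Lama1 by 0.22 ± 0.15, and Lama2, an alpha chain of muscle and brain vessels, by -0.05 ± 0.09 and -0.06 ± 0.10 at its 2 probes. The groups overlapped at each of these probes. Lama3, an alpha chain of epithelial laminins, gave -0.46 ± 0.22 at its brighter probe and 0.23 ± 0.12 at the other. Its 3xTg value on array 4 was 9.73, against 10.16 to 10.81 in the other 3xTg samples and 10.59 to 11.08 in WT. Lamb3, the beta chain of the same epithelial trimer, differed by -0.20 ± 0.13, and Lamc3 by -0.13 ± 0.11.

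Type IV collagen, the second network of the sheet, was measured at 9 probes of 6 genes, none of which passed, and no interval lay clear of 0. Its genes lie in head-to-head pairs, so the members of each pair are set side by side. Col4a1 and Col4a2 encode the chains of the common trimer. Col4a1 measured 13.77, 13.99, 14.28 and 13.95 in WT and 14.05, 14.04, 13.83 and 13.75 in 3xTg. Its differences on arrays 1 to 4 were 0.27, 0.05, -0.45 and -0.20, or -0.08 ± 0.13 in the fit. Col4a2 measured 12.71, 12.70, 12.95 and 12.92 in WT and 12.50, 12.82, 12.49 and 12.78 in 3xTg. Its differences were -0.21, 0.12, -0.46 and -0.14, or -0.17 ± 0.12. Both genes were lowest relative to WT on array 3 and highest relative to WT on array 1 or 2. The 95% interval of the difference was -0.39 to 0.23 for Col4a1 and -0.44 to 0.10 for Col4a2.

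Col4a3 and Col4a4 encode chains of a trimer best known from kidney and other specialised sheets. Col4a3 differed by 0.10 ± 0.12, and the 3 probes of Col4a4 by 0.06 ± 0.09, 0.12 ± 0.10 and 0.06 ± 0.13. Array 3 gave the highest difference at all 4 probes of the pair, from 0.16 to 0.40. Col4a5 differed by -0.01 ± 0.15, with arrays between -0.44 and 0.44, and the 2 probes of Col4a6 by -0.01 ± 0.11 and 0.12 ± 0.12. The median of the 6 genes was -0.01.

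Nidogens and proteoglycans, the linkers of the sheet, had no probe that passed, and their median over 4 genes was -0.01. The nidogens lay on opposite sides of 0. Nid1 had 3 probes with differences of 0.13 ± 0.13, 0.23 ± 0.10 and 0.27 ± 0.14, and its adjusted p by limma was 0.286 or higher at each. Nid2 measured 9.30, 9.25, 9.44 and 9.40 in WT and 8.78, 8.70, 9.46 and 9.16 in 3xTg, a difference of -0.32 ± 0.12 with an adjusted p of 0.232. The 3xTg values were below the WT group on arrays 1, 2 and 4, and within 0.02 of the WT partner on array 3. Hspg2 encodes perlecan, the heparan sulphate proteoglycan through which fractones are known to bind fibroblast growth factor. Its 2 probes differed by -0.07 ± 0.10 and -0.05 ± 0.12. Agrn encodes agrin, a proteoglycan of vascular and synaptic sheets, and differed by 0.06 ± 0.12 and 0.14 ± 0.09, the second above WT on all 4 arrays.

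Collagens of the zone around the sheet gave different values at different probes of a gene, and none passed. Col15a1 encodes a collagen that bridges basement membranes to the fibrils beside them. Its probe A_52_P170882 measured 8.53, 8.19, 7.90 and 8.84 in WT and 9.23, 9.41, 9.09 and 9.22 in 3xTg. All 3xTg values lay above all WT values, and the 3xTg samples spanned a narrower range than the WT samples. The difference was 0.87 ± 0.16, or 1.83-fold, and its adjusted p of 0.0507 lay just outside the threshold. A second probe, A_55_P2060379, differed by 0.63 ± 0.14 (adjusted p = 0.0935, limma), with 0.65, 0.98, 0.75 and 0.13 on arrays 1 to 4. The brightest probe, A_55_P2060386, differed by -0.13 ± 0.13, with 0.13, -0.18, 0.09 and -0.56 on those arrays. With array 4 left out the first 2 probes passed, with differences of 1.04 and 0.79 and adjusted p-values of 0.0416 and 0.0472. With any other array left out neither probe passed, and the adjusted p-values by limma reached 0.374 and 0.507.

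Col18a1 encodes the related collagen whose end fragment is endostatin. Its probe A_55_P2124791 was above WT on all 4 arrays, by 0.51, 0.69, 0.46 and 0.14, and differed by 0.45 ± 0.11 (adjusted p = 0.114, limma). Its brightest probe differed by -0.10 ± 0.12. Col7a1, the collagen of anchoring fibrils in skin, differed by -0.09 ± 0.11.

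Fibril-forming collagens, the main collagens of connective tissue and meninges, were measured at 1 probe each for 11 genes. None passed, and their median was -0.03 with 5 above 0 and 6 below. Col1a1 and Col1a2 encode the chains of type I collagen. Col1a1 differed by 0.11 ± 0.13 and Col1a2 by -0.17 ± 0.13, and at both the difference was above 0 on array 2 and below 0 on arrays 3 and 4. Col3a1, the chain of type III collagen, was above WT on all 4 arrays with a difference of 0.21 ± 0.10 (adjusted p = 0.312, limma). Col5a2 and Col5a1 encode chains of type V collagen, which starts fibril growth. Col5a2 measured 8.17, 8.01, 8.09 and 8.10 in WT and 7.81, 7.83, 7.92 and 7.63 in 3xTg. All 3xTg values were below all WT values, with a difference of -0.30 ± 0.10 that did not pass (adjusted p = 0.193, limma). Col5a1 differed by -0.29 ± 0.12, with -0.35, -0.46, -0.42 and 0.06 on arrays 1 to 4. The other genes, Col2a1, Col5a3, Col11a1, Col11a2, Col24a1 and Col27a1, differed by -0.19 to 0.16.

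Fibril-associated collagens, which decorate the surface of fibrils, had 15 probes of 9 genes, none of which passed. Their median was 0.02, and 6 genes were above 0 and 3 below. Col9a3 encodes a chain of type IX collagen and measured 9.83, 9.36, 9.64 and 10.21 in WT and 10.74, 10.40, 10.35 and 10.27 in 3xTg. The groups did not overlap, although the lowest 3xTg and the highest WT value, both on array 4, were 0.06 apart. The difference was 0.68 ± 0.16 with an adjusted p of 0.1, and 0.89 with an adjusted p of 0.0385 when array 4 was left out. Leaving out any other array gave no pass, with an adjusted p of up to 0.515 by limma. Col9a1, another chain of that trimer, differed by -0.09 ± 0.13 and 0.20 ± 0.16 at its 2 probes, and Col9a2, the remaining chain, by 0.17 ± 0.10 with all 4 arrays above WT. Col20a1 differed in the other direction. Its probe A_52_P474902 gave -1.01, -0.60, -0.36 and -0.46 on arrays 1 to 4, a difference of -0.61 ± 0.13 (adjusted p = 0.074, limma). Its brighter probe differed by -0.27 ± 0.11. Col19a1 gave 0.21 ± 0.09 at its brighter probe, above WT on all 4 arrays, and -0.35 ± 0.18 at the other. The 4 probes of Col16a1 differed by -0.04 to 0.20, and Col12a1, Col14a1 and Col22a1 by -0.11 to 0.03.

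Collagen VI, which forms beaded filaments next to basement membranes, had the widest differences among the members, in both directions, and none of its probes passed. Its main trimer joins 1 chain each from Col6a1, Col6a2 and Col6a3. Col6a3 (A_52_P479262) measured 9.34, 8.58, 8.47 and 10.14 in WT and 10.95, 11.12, 10.60 and 10.43 in 3xTg. Each 3xTg value was above each WT value, and WT replicate 4 was the WT sample nearest to the 3xTg range. The difference was 1.61, 2.54, 2.13 and 0.29 on arrays 1 to 4 and 1.64 ± 0.32 in the fit, or 3.12-fold, with an adjusted p of 0.0637. Without array 4 it was 2.09 with an adjusted p of 0.0151. Without any other array it did not pass, with an adjusted p of up to 0.386 by limma.

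Col6a1 (A_55_P2128153), which has a single probe, measured 13.49, 13.96, 13.72 and 13.60 in WT and 11.82, 12.46, 13.40 and 14.01 in 3xTg. Here the WT samples lay close together and the 3xTg samples were spread, with replicates 1 and 2 below all WT values and replicate 4 above them. The array differences of -1.67, -1.51, -0.32 and 0.41 gave -0.77 ± 0.32 (adjusted p = 0.268, limma), and the value turned to 0.04 when arrays 1 and 2 were left out together. Col6a2 differed by -0.94, -0.77, -0.21 and -0.64 at its brighter probe (A_51_P279639), or -0.64 ± 0.13 (adjusted p = 0.0723, limma). It measured 10.36, 9.85, 10.49 and 10.43 in WT and 9.42, 9.09, 10.28 and 9.80 in 3xTg, so that the groups overlapped. Without array 3 this probe passed, at -0.78 with an adjusted p of 0.0401. Without any other array it did not, with an adjusted p of up to 0.46 by limma. The other Col6a2 probe differed by 0.06 ± 0.11. Col6a1 and Col6a2 are neighbours on chromosome 10, and at the probes just given both were furthest below WT on array 1.

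The upstream stretches of the 3 chains of the main trimer are shown together because their fitted differences at brightest probes had opposite signs. Col6a3 was above WT and Col6a1 and Col6a2 were below, and none passed. The stretches cover the same 250 to 31 bases before the start as for Lamb2, and capitals mark a match to a GC box on either strand.
Col6a1 promoter, chr10:76726075-76726294, minus strand: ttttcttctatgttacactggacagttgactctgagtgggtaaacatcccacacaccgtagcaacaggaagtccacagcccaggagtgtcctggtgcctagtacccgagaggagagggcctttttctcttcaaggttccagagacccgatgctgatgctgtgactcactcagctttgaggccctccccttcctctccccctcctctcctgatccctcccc
Col6a2 promoter, chr10:76623661-76623880, minus strand: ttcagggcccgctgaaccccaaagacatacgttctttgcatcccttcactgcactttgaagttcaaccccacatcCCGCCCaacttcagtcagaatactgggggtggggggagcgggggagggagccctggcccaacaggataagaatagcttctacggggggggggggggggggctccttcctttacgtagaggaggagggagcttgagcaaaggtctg
Col6a3 promoter, chr1:90844002-90844221, minus strand: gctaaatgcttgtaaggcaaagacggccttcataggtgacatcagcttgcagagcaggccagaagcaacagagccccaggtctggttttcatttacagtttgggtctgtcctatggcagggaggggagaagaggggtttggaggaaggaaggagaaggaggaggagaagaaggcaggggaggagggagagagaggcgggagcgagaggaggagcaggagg
Col6a2 holds 1 GC box, on the opposite strand and so read here as CCGCCC. No other match to the 3 motifs was found in the 3 stretches, which again leave out the usual place of a TATA box. Bases G and C make up 55% for Col6a1, 59.1% for Col6a2 and 56.4% for Col6a3.

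Col6a4, Col6a5 and Col6a6 encode chains that can stand in for the alpha3 chain. Col6a5 had 1 array far from the rest at each probe. Probe A_52_P387884 measured 11.15, 11.14, 11.15 and 11.83 in WT and 10.71, 9.17, 11.24 and 11.26 in 3xTg, a difference of -0.72 ± 0.29 (adjusted p = 0.253, limma). Probe A_55_P2205858 gave -0.66, -1.14 and -0.89 on arrays 1 to 3 and 0.20 on array 4. It differed by -0.62 ± 0.20 (adjusted p = 0.185, limma), and passed at -0.90 without array 4 (adjusted p = 0.0462). It did not pass without any other array, with an adjusted p of up to 0.635 by limma. Col6a4 and Col6a6 differed by -0.18 to 0.02 over 4 probes. The network-forming Col8a1 and Col8a2, known from vessel walls, differed by -0.05 to 0.01, and Col10a1, a cartilage collagen, by 0.08 ± 0.14.

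**Figure D2:**
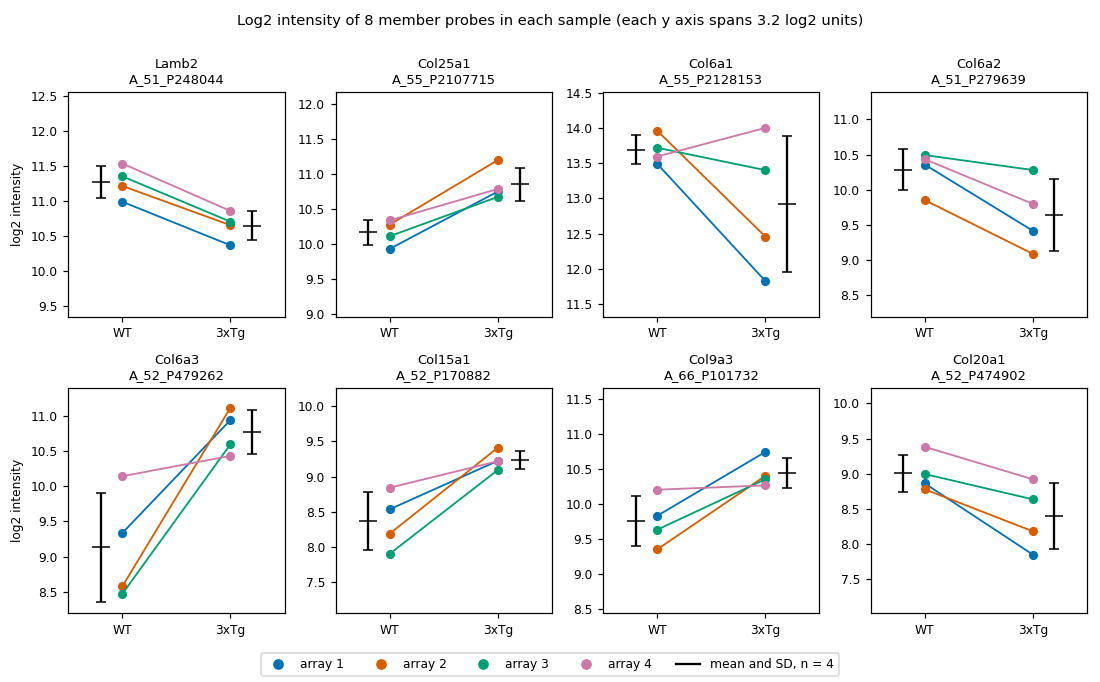
Log2 intensity of 8 probes in every WT and 3xTg sample, with a line joining the samples of an array, and mean and SD (n = 4) in black. Lamb2 falls by about the same amount on each array, whereas the lines of Col6a3, Col15a1 and Col9a3 are flattest on array 4 and those of Col6a1 point in both directions.

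The group of transmembrane and other collagens had the other probe that passed. Col25a1 encodes a neuronal transmembrane collagen whose shed part, called CLAC, is found in amyloid plaques in human Alzheimer's disease. Probe A_55_P2107715 measured 9.93, 10.28, 10.11 and 10.34 in WT and 10.75, 11.20, 10.67 and 10.79 in 3xTg. All 3xTg values were above all WT values, and the arrays gave 0.82, 0.92, 0.56 and 0.45. Col25a1 rose at this probe by 0.69 ± 0.11 (95% interval 0.42 to 0.95), or 1.61-fold, with an adjusted p of 0.0403 by limma. With any 1 array left out the difference was 0.61 to 0.77 and did not pass, with adjusted p-values of 0.0551 to 0.334. With quantile normalisation it missed the threshold as well, at 0.69 with an adjusted p of 0.0547.

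The other 3 probes of Col25a1 did not pass. The brightest, A_55_P2160750, differed by 0.69, 0.61, 0.33 and -0.02 on arrays 1 to 4, or 0.40 ± 0.13 (adjusted p = 0.19, limma). Probe A_52_P876623 measured 10.41, 10.58, 10.66 and 10.50 in WT and 11.43, 11.60, 11.53 and 10.38 in 3xTg. Its first 3 arrays differed by 0.87 to 1.02 and array 4 by -0.12, so that its 0.70 ± 0.19 had an adjusted p of 0.136, and 0.97 with 0.0266 without array 4. This probe did not pass without any other array, with an adjusted p of up to 0.578 by limma. Probe A_55_P2107711 differed by 0.14 ± 0.15, with -0.42 on array 3. The average of the 4 probes differed by 0.48 (adjusted p = 0.109, limma).

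Among the other collagens of this group, Col26a1 was above WT on all 4 arrays at its brighter probe. It differed by 0.25, 0.11, 0.50 and 0.29, or 0.28 ± 0.10 in the fit (adjusted p = 0.215, limma). Col23a1, a transmembrane collagen, differed by -0.08 ± 0.13 at its brightest probe and by 0.25 ± 0.10 at A_52_P441036. Col13a1 and Col17a1, transmembrane collagens of cell adhesion sites, differed by -0.04 ± 0.19 and 0.15 ± 0.11, and Col28a1 by 0.18 ± 0.14. The median of the 6 genes at their brightest probes was 0.17, with 4 above 0.

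Matrix of the brain parenchyma had no probe that passed, and its median over 7 genes was -0.06, with 2 above 0 and 5 below. Ncan, which binds hyaluronan around neurons, measured 14.07, 14.07, 13.94 and 13.79 in WT and 13.42, 13.41, 13.88 and 13.79 in 3xTg. The difference of -0.34 ± 0.15 (adjusted p = 0.273, limma) came from arrays 1 and 2, at -0.66 each, while array 3 gave -0.05 and array 4 gave 0.00. Bcan, a brain lectican of perineuronal nets, was below WT on all 4 arrays at its brighter probe (-0.21 ± 0.09) and differed by 0.18 ± 0.13 at the other. Acan, the main lectican of perineuronal nets, differed by 0.07 ± 0.11. Both samples of array 4 were low for Acan, at 10.59 in WT and 10.43 in 3xTg, where the other 6 samples lay between 11.88 and 12.49.

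Reln, the secreted guidance protein of interneurons in the adult forebrain, measured 10.80, 10.00, 9.85 and 11.08 in WT and 9.58, 9.90, 9.93 and 10.64 in 3xTg. Its difference of -0.41 ± 0.20 (adjusted p = 0.331, limma) was widest on array 1, at -1.21. Tnc, a tenascin of the germinal niche, differed by 0.03 ± 0.11, Tnr, a tenascin of nets and nodes of Ranvier, by -0.06 ± 0.12, and Fn1, the fibronectin of vessels and meninges, by -0.02 ± 0.11.

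Probes of the same gene often disagreed. Of the 65 genes, 43 had 1 probe and 22 had several. At 12 of the 22 the probes lay on both sides of 0, and at 6 the fitted differences spanned more than 0.5 log2 units. Those 6 were Col15a1, Col6a2, Lama3, Col25a1, Col19a1 and Col18a1. The probe sequences were not used here, so which transcript each probe reads was not tested.

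**Figure D3:**
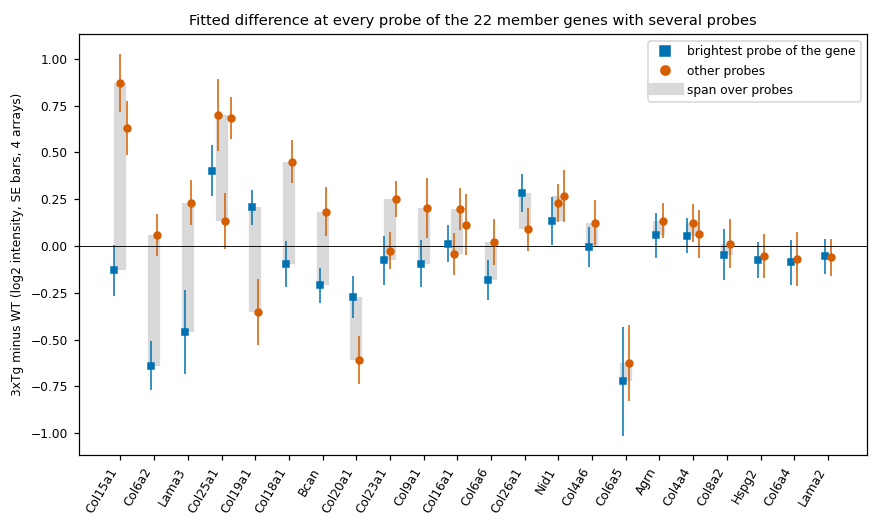
Fitted difference between 3xTg and WT at every probe of the 22 genes with several probes, ordered by the span between probes. Values are log2 intensity over 4 arrays, with bars of the moderated SE. The brightest probe of each gene is a square and the others are circles; Col15a1 has the widest span, from -0.13 to 0.87.

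Genes that act on this matrix were described by lists made with earlier results of these data known. Medians and counts take each gene at its brightest probe, while the genes named are given at their probe of smallest p. The 29 matrix receptors (integrins, dystroglycan, discoidin receptors and others) had a median of 0.03, with 18 above 0 and none that passed. The integrin gene Itga9 differed by -0.47 ± 0.12 (adjusted p = 0.124, limma). The collagen receptor gene Ddr2 and the hyaluronan receptor gene Cd44 lay the other way, each above WT on all 4 arrays at a dimmer probe. There they differed by 0.44 ± 0.13 (adjusted p = 0.161, limma) and 0.41 ± 0.13 (adjusted p = 0.172, limma). At brightest probes the receptors ran from -0.47 to 0.27. The 24 genes of collagen modification and assembly had a median of -0.04 and none passed. P4ha2, a subunit of the enzyme that hydroxylates collagen prolines, was below WT on all 4 arrays, with a difference of -0.58 ± 0.12 (adjusted p = 0.0693, limma). Sparc, a collagen-binding secreted protein, differed by 0.88 ± 0.24 at its dimmer probe (adjusted p = 0.129, limma). At brightest probes the genes of this list ran from -0.58 to 0.465.

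Of 21 matrix proteases and inhibitors 11 were above 0 and 10 below, with a median of 0.03 and a range of -1.12 to 0.32. In this list 1 gene passed, below WT, against 120 higher and 133 lower of all 21363 genes. The 3 genes named here were all below WT. Plat, the tissue plasminogen activator, measured 12.38, 12.62, 12.84 and 12.65 in WT and 11.77, 11.98, 12.29 and 11.76 in 3xTg, without overlap. It fell by 0.68 ± 0.10 (adjusted p = 0.0313, limma). Mmp17, a membrane-anchored metalloprotease, differed by -1.88, -1.51, -0.70 and -0.40 on arrays 1 to 4 (adjusted p = 0.0743, limma), and Mmp14, a collagen-degrading relative, by -0.44 ± 0.10 (adjusted p = 0.0825, limma). The 35 genes of hyaluronan, link proteins and other brain matrix had a median of -0.06, with 9 above 0 and 26 below, and none passed. In that list Fbln1, a fibulin of basement membranes, differed by -0.64 ± 0.13 at 1 of 3 probes (adjusted p = 0.0743, limma). Vcan, the lectican versican, differed by -0.36 ± 0.10 at 1 of 3 (adjusted p = 0.123, limma). Neither probe is the brightest of its gene, and at brightest probes the list ran from -0.29 to 0.55.

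Markers of the cells that make or border this matrix were set beside the members array by array. Endothelial genes (14) had a median of 0.09, with array medians of -0.10, 0.01, 0.07 and -0.02, and a mean level of 11.10 to 11.37 in WT and 11.09 to 11.28 in 3xTg. Pericyte and smooth muscle genes (12) had a median of -0.04, with -0.11, 0.05, 0.04 and -0.10 on the arrays. Fibroblast genes (14), 3 of which are members (Col1a1, Col1a2, Col3a1), had a median of 0.07, with 0.22, 0.23, 0.12 and -0.16. The mean levels of all 3 lists overlapped between the groups. The fibroblast list was lowest on array 4, as were Col6a3, Col15a1 and Col9a3. So were the median over all members (-0.14) and the ependymal (-0.54), choroid plexus (-0.09), oligodendrocyte precursor (-0.12), astrocyte (0.17) and septal (0.05) lists. The endothelial and pericyte lists were lowest on array 1, and the cortical list was highest on array 4 (0.39).

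Of the cells that line or populate the niche, ependymal genes were below 0 at 8 of 9, with a median of -0.16 and array medians of -0.39, -0.14, 0.46 and -0.54. Astrocyte and neural stem cell genes were above 0 at 9 of 11, with a median of 0.20 and array medians of 0.22, 0.28, 0.25 and 0.17. The 7 oligodendrocyte genes had a median of 0.20, with array medians of -0.61, 0.58, 0.61 and 0.38, so that array 1 lay opposite to the others. Among 9 choroid plexus genes 4 were above 0 and 5 below, with a median of -0.03. In that list Ttr, the transthyretin gene, differed by 1.09, 1.27, 1.22 and 0.13 on arrays 1 to 4 (adjusted p = 0.0713, limma). Slc4a5, a bicarbonate transporter gene, lay the other way, at -0.27, -0.52, -0.61 and -0.77 (adjusted p = 0.0711, limma), and neither gene's groups overlapped.

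Neuron markers of regions next to the subventricular zone differed more. All 11 striatal projection neuron genes were below WT, with array medians of -2.18, -1.72, 0.29 and -0.34. None passed at its brightest probe, and Arpp21 passed at a dimmer probe, at -1.25 ± 0.18 (adjusted p = 0.0291, limma). The mean level of the striatal list ran from 13.97 to 14.54 in WT and from 12.37 to 14.26 in 3xTg. Septal and cholinergic genes had array medians of 0.91, 0.93, 0.39 and 0.05. Of these 9 genes 7 were above 0 and 2 below, and 3 passed above WT, against 120 of all 21363 genes. Cortical and hippocampal genes had -0.60, -1.20, -1.69 and 0.39. None of these passed at its brightest probe, and Camk2a passed at a dimmer probe, at -0.68 ± 0.11 (adjusted p = 0.0403, limma). Interneuron genes had 0.08, -0.30, -0.47 and -0.05. Of these 9 genes 3 were above 0 and 6 below, from -1.26 to 1.005. The lowest was Npy, the neuropeptide Y gene, which fell by 1.26 ± 0.21 (adjusted p = 0.0409, limma). Each array thus had its own set of marker differences, and their part in the values of the members was not tested.

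**Figure D4:**
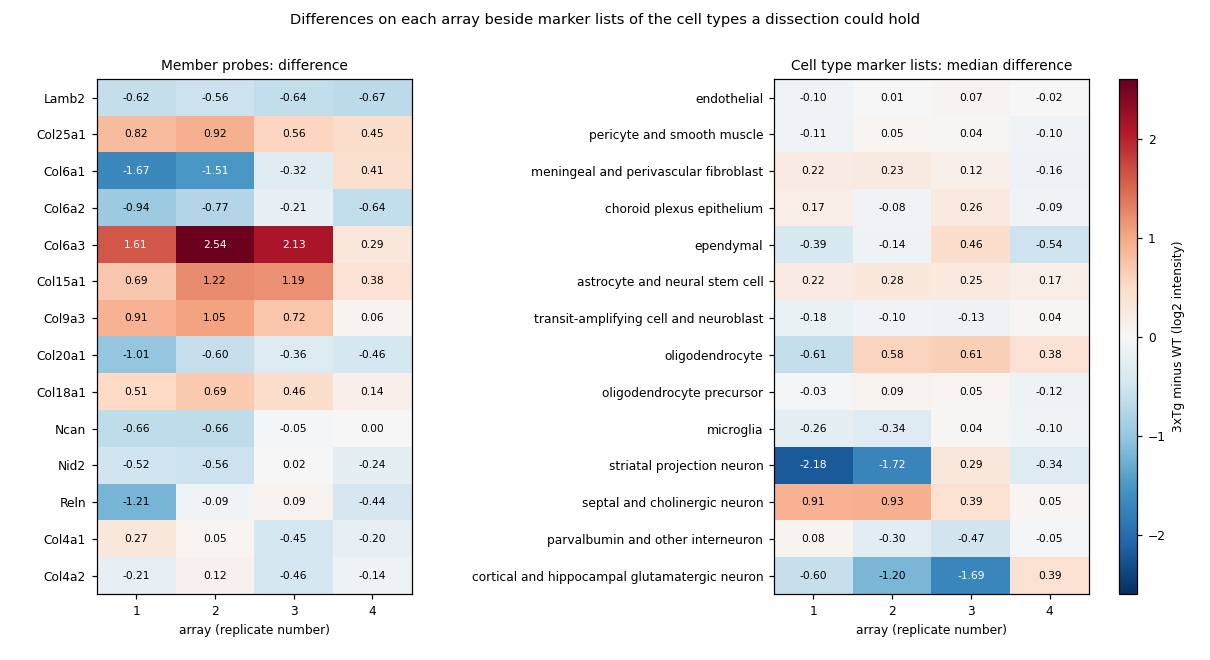
Difference in log2 intensity between 3xTg and WT on each of 4 arrays, for 14 member probes (left) and as the median of each cell type marker list (right), red where 3xTg was higher and blue where WT was higher. The row of Lamb2 has nearly 1 value on all arrays, those of Col6a3 and Col9a3 are palest on array 4, and the striatal list is darkest on arrays 1 and 2.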

How the data were processed

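Total RNA of 4 3xTg and 4 WT samples was measured on 4 2-colour arrays with Agilent probe identifiers. The deposited values are log2 intensities that the authors had already normalized, with limma per the submitters' processing notes. Its version, the background correction and the normalization method are not stated there. Because the scanner output was not analysed here, no probe could be judged against background, and the number of arrays limits the precision. Probes were named through the platform annotation (29769 probes with 1 symbol, 0 with several and 2915 with none), and all 95 member probes matched the RefSeq gene table of GRCm38.p6.

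The model for each of the 32684 probes held genotype and a fixed effect per array (limma 3.58.1, R 4.3.3). Variances were moderated by empirical Bayes at default settings and two-sided p-values were adjusted by the Benjamini-Hochberg method. The pairing comes from the labels, which name the same raw data for both samples of a replicate number. Deviations from the group means correlated at 0.78, 0.78, 0.54 and 0.82 within arrays 1 to 4 and at most at 0.18 between arrays. Where genes enter a median, each is at the probe of highest mean over the 8 samples.

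The members, role groups, lists and alternatives were chosen with earlier results of these data known. The text names every member that passed, up to 4 genes of smallest p in each role group, the non-collagen members, the neighbouring collagen pairs, the 5 probes of widest spread between arrays, genes whose probes span over 0.5, and up to 3 genes in each list. Other members are given by their differences. Alternatives were to drop the array term or make it random (statmod 1.5.0), to centre samples on their medians, to apply quantile normalisation or within-array loess (span 0.3), to moderate with trend and robust settings, to leave out the dimmest 25% of probes, to average the probes of a gene, and to leave out arrays. The fit was tested on simulated data. Upstream stretches are from the RefSeq promoter table of GRCm38.p6.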

Additional observations from a re-analysis of the deposited data

Results flagged for a closer look

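The named member probes were examined in both groups for a sample that stood far from the other 3 of its group, and 5 of 108 groups had one. Chance alone marks about 5% of groups of 4 by this measure (Dixon's ratio). In 3xTg, replicate 4 stood apart at Col25a1 probe A_52_P876623, with 10.38 against 11.43 in the nearest sample, and at Col4a4 probe A_55_P2009918, with 8.84 against 9.75. Its WT partner on the same array was equally low for Col4a4, at 8.79. In WT, replicate 4 was the high sample at both probes of Col6a5, with 11.83 against 11.15 at A_52_P387884 and 8.97 against 8.29 at A_55_P2205858. For Hspg2 (A_52_P422859) WT replicate 2 was high, at 10.56 against 9.91, and so was its 3xTg partner, at 10.49.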

How the results depend on the processing

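The median difference over the member genes stayed between -0.06 and 0 in all 13 alternatives, and Lamb2 between -0.66 and -0.61. Without the dimmest 25% of probes the median covered fewer genes, those whose brightest probe remained. In that setting the beaded-filament and network collagens moved from -0.09 to -0.36. The brain parenchyma group moved from -0.06 to -0.21, and the fibril-associated collagens from 0.02 to 0.09. Lamb2 passed in 7 of the 13 and Col25a1 probe A_55_P2107715 in 5. Member probes called higher and lower, 1 and 1 as reported, were 0 and 0 with no replicate block, where Lamb2 had an adjusted p of 0.377 and Col25a1 0.285 by limma. They were 5 and 3 with the array as a random block, 4 and 3 with trend and robust moderation, 3 and 1 after centring on sample medians or loess, 0 and 1 with quantile normalisation (Col25a1, adjusted p = 0.0547) and 0 and 1 with the probes of a gene averaged. With each array left out in turn they ranged from 0 to 5 and from 0 to 1, and without replicates 1 and 2 together both were 0. Over all probes, 203 higher and 197 lower became 47 and 31 with no replicate block, 551 and 758 with a random block, 405 and 500 with trend and robust moderation, 132 and 115 with quantile normalisation, 119 and 128 with gene averages, 12 to 185 and 19 to 229 with an array left out, and 101 and 60 without replicates 1 and 2. Without array 4 the 5 members called higher were Col6a3, Col9a3, both dimmer Col15a1 probes and Col25a1 probe A_52_P876623. None of these 5 passed when another array was left out instead. Col6a3 and Col15a1 probe A_52_P170882 also passed after centring and after loess, with adjusted p-values between 0.0387 and 0.0493. Among named probes with an unadjusted p under 0.05 the sign turned at Col6a1 only, at 0.0445 without replicates 1 and 2. The cause of these shifts was not tested.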
